A study of Rattus norvegicus with 18 samples.

Results

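The potassium channel genes described here are the probe sets whose only gene symbol in the platform's annotation starts with Kcn, with Kcnj13 left out and with the brightest probe set kept where a symbol has several. The rule gave 85 genes from 87 probe sets, out of 23188 gene probe sets of which 15049 have exactly 1 symbol. Tissue came from adult Sprague-Dawley rats, all females of 90 days, that were ovariectomized (OVX), recovered for a week and were then given subcutaneous injections on Days 1 and 2, either of 10 µg estradiol benzoate (EB) in 0.1 mL of oil or of 0.1 mL of oil alone. On Day 4, bilateral punches were taken of the arcuate nucleus (ARC), the paraventricular nucleus (PVN) and, in the hindbrain, the nucleus of the solitary tract (NTS), and RNA was run on Rat Clariom S arrays. Each region has 3 EB-treated and 3 Oil-treated samples, 18 arrays in all, named here by region, treatment and replicate number. All rats were OVX, so the Oil-treated rats are a hormone-deprived control, and the labels do not say which samples of different regions came from the same rat. With 3 rats given for each treatment, the 9 samples of a treatment come from 3 animals, and p-values of the average EB effect over all 18 samples may be too small. The other fits of all 18 samples compare regions within rats. They ignore the shared rats too, but their p-values need not be too small for it.

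Potassium channels let potassium leave or enter a cell and so set its resting potential, the shape of its action potentials and how often it fires. Their pores are built by a few related families. Voltage-gated Kv subunits open on depolarization, and cytoplasmic beta subunits, KChIPs and KCNE proteins join them. Calcium-activated BK and SK channels follow calcium entry, inward rectifiers (Kir) include G protein-gated GIRK and ATP-sensitive channels, and tandem-pore K2P channels carry leak current. In ARC neurons of other rodents, estradiol is known to act on inward rectifiers of the GIRK kind, on ATP-sensitive channels and on the M-current of the Kcnq genes. The levels of these genes with EB and Oil are given below, and they were added after their values were seen.

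Promoter sequences of the genes on which the main regional and EB differences turn are shown first. Each is the stretch of 250 bases before the start of the gene, given by RefSeq on build GRCr8 and written along the strand of the gene. Capitals mark the GC box GGGCGG, the estrogen receptor half-site AGGTCA, the E-box CAGCTG and the TATA box TATAAA, each searched on both strands. These motifs do not share letters with each other in the windows shown. The first 3 genes were higher in ARC and PVN than in NTS.
Kcnf1, chr6:45693707-45693956, minus strand: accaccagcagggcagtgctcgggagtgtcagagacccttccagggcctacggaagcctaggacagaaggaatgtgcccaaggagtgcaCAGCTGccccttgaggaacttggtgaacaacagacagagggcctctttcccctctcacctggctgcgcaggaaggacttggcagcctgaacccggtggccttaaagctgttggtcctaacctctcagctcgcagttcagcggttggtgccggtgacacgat
Kcna3, chr2:197320074-197320323, plus strand: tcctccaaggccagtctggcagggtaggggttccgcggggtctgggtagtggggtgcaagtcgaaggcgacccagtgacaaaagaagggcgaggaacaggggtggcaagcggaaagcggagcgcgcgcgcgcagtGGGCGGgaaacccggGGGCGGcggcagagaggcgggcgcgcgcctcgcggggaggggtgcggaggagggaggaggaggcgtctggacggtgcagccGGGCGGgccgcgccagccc
Kcnd3, chr2:195626066-195626315, plus strand: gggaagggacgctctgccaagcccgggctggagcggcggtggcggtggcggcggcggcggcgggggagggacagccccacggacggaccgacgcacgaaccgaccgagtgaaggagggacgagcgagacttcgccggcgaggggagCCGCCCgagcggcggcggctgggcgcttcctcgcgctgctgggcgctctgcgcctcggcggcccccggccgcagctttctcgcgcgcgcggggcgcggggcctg

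Kcnj14 and Kcnab3 were higher in NTS, and Kcnab3 also differed between EB-treated and Oil-treated PVN samples.
Kcnj14, chr1:105437259-105437508, minus strand: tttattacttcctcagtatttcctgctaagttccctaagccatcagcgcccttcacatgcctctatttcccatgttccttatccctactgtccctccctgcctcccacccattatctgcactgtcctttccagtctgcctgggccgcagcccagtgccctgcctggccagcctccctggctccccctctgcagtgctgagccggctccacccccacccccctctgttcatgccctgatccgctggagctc
Kcnab3, chr10:54546388-54546637, plus strand: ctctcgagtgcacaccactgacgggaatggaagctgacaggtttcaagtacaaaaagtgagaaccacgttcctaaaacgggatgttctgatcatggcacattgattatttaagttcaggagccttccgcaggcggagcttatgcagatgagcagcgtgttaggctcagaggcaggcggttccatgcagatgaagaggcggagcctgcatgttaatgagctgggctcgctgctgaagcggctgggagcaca

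Kcnmb4 was the other gene that differed between EB and Oil in the PVN.
Kcnmb4, chr7:54005102-54005351, minus strand: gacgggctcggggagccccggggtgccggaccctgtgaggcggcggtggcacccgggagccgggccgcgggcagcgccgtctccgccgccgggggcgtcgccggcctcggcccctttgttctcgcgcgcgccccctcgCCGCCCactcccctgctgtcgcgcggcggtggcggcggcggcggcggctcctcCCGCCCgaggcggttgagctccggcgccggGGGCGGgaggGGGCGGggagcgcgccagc

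Of the 85 genes, 60 matched the promoter table by gene identifier, with 66 windows between them. A GC box stood in 33 of these windows (50%), against 30.5% of the 33469 windows of all genes in the table. The half-site was found in 4 windows (6.06%, against 14.1% of all windows), the E-box in 14 (21.2%, against 12%) and the TATA box in 1 (1.52%, against 12.9%). The median number of CG dinucleotides was 11.5 in the windows of potassium channel genes and 5 in all windows. All 7 genes higher in ARC and PVN than in NTS had a window, and 6 of these 7 windows held a GC box, Kcnf1 being the exception. Of the 13 genes higher in NTS than in both other regions, 6 had a window, and 3 of their 7 windows held one. The windows of Kcnj14 and Kcnab3 held none of the 4 motifs, while that of Kcnmb4 held 4 GC boxes and 44 CG dinucleotides. A match describes letters in a window and does not show that a factor binds there.

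The deposited values are signal intensities (Log 2), so a difference of 1 is a 2-fold difference. Background was taken, for each array, as the median signal of its 23 background probe sets, which ran from 6.74 to 7.60 and averaged 7.43. Median signals of the gene probe sets lay between 7.74 and 7.998 on the 18 arrays, of which between 52.9% and 60.7% lay above background. Several samples stand apart by marker genes. The mean level of 10 PVN neuron markers was 7.55 in PVN Oil 1 and 7.58 in PVN Oil 3 but 8.40 to 10.31 in the other PVN samples, while 12 midbrain dopamine and mammillary markers averaged 8.67 and 8.70 in these samples and 6.77 to 7.08 in the other 4 PVN samples. Among the PVN neuron markers, the gap was widest for Oxt (6.97 and 6.92, against 12.36 to 16.10) and Avp (7.11 and 6.80, against 10.46 to 15.25). The paper reports Avp as higher with EB in the PVN, and a large but not significant fold change for Oxt. Mc4r and Otp were also lower in PVN Oil 1 and PVN Oil 3, by less. Nr3c1, Pou3f2, Crh, Sim1, Brs3 and Trh overlapped with the other PVN samples. Sim1 was higher there than in PVN EB 3 and PVN Oil 2. ARC EB 2 had 9.64 for the same midbrain list and the lowest ARC neuron mean of its region, 7.93, and ARC EB 3 had 8.81 for the midbrain list, against 7.42 to 8.07 in the other ARC samples. PVN neuron markers averaged 9.43 in ARC Oil 1, which also had the lowest background, and 7.56 to 7.93 in the other ARC samples. In ARC Oil 1, Oxt read 14.52 and Avp 14.12, against 7.02 to 7.92 and 6.68 to 7.10 in the other ARC samples. NTS Oil 3 had a mean of 7.82 for NTS neuron markers, where the rest of its region had 9.13 to 9.75. Choroid plexus markers averaged 13.64 in NTS EB 3, 11.28 in NTS Oil 1, 11.35 in NTS Oil 2 and 7.55 or less in the other 15 samples. In tissue samples, fewer cells of a kind and less RNA per cell cannot be told apart.

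Potassium channel genes spanned almost the whole range of signals. Above the background of their array in all 18 samples were 36 genes, in none were 29, and in some samples were 20. Signals of different probe sets depend on their probes as well as on RNA, so the order given here is of signals. Kcnab2, a cytoplasmic beta subunit of Kv1 channels, gave the highest signal (15.24 ± 0.45, SD over 18 samples, range 14.57 to 16.12). Kcnd2, the Kv4.2 pore of A-type current, gave 14.24 ± 0.20, and Kcnip4, a calcium-binding partner of Kv4 channels, gave 14.14 ± 0.36. Kcna1 (Kv1.1 of axons), Kcnip1, the leak channel Kcnk9 (TASK-3), Kcnab1 and the BK pore Kcnma1 followed with means of 12.60, 12.47, 12.40, 12.23 and 12.16. The spread over samples differed by gene, with an SD of 1.47 for Kcna1 and of 0.20 for Kcnd2.

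**Figure D1:**
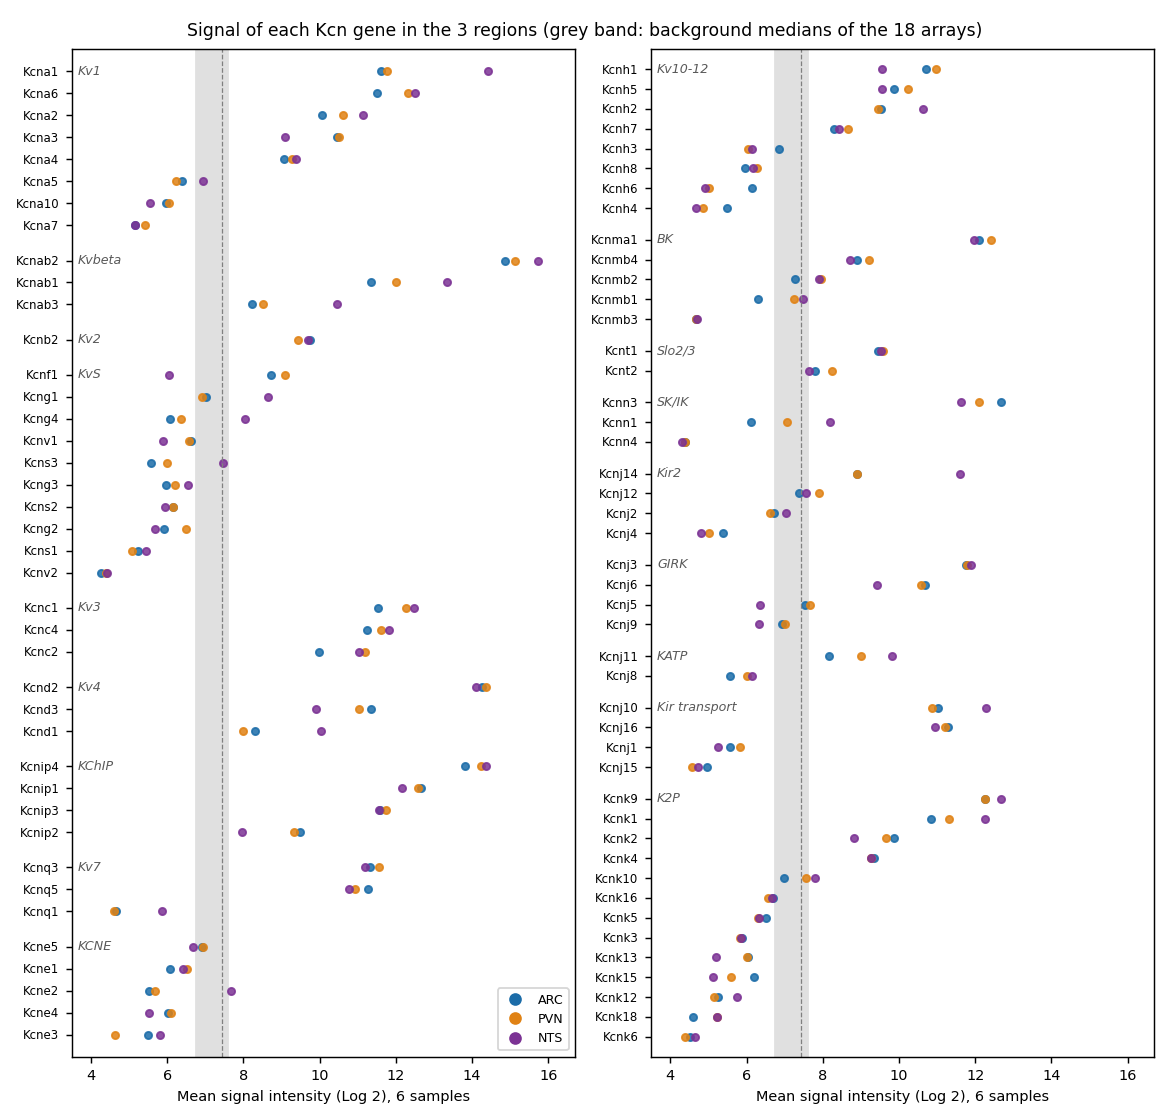
Mean signal intensity (Log 2) of each of the 85 potassium channel genes in ARC, PVN and NTS, 6 samples each, with genes grouped by family and ordered by signal within it. The grey band spans the background medians of the 18 arrays, 6.74 to 7.60, and the dashed line is their mean, 7.43. Kcna1, Kcnj14 and Kcnf1 show the widest gaps between NTS and the other regions.

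Families differed in how many members had a mean signal above the mean background. All 3 Kv3 genes, all 3 Kv4 genes, all 4 KChIPs and all 3 Kv beta genes did, as did 5 of 8 Kv1 genes, 5 of 13 K2P genes, 4 of 8 Kv10-12 genes and 3 of 5 genes of the BK family. Of the 10 silent Kv subunits, which build channels only together with Kv2, 2 did, Kcnf1 and Kcng1. None of the 5 KCNE genes did, and the highest of them was Kcne5 with 6.84. Among the others, Kcnb2 of the Kv2 family, both Slo2 genes (Kcnt1 and Kcnt2) and 2 of 4 Kir channels of glia and epithelia did. So did 2 of 3 Kv7 genes, 2 of 4 GIRK genes, 2 of 4 Kir2 genes, 1 of 2 pore genes of ATP-sensitive channels and 1 of 3 SK genes. Kcnn4, a calcium-activated channel of blood cells and epithelia, lay at 4.37, Kcnv2 at 4.36 and Kcnk6 at 4.51, below background in every sample. The skeletal muscle channel gene Kcna7 lay at 5.25.

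The regions were compared in a fit of all 18 samples, with a gene called where the adjusted p was under 0.05 and the difference at least 2-fold. Between ARC and NTS, 29 of the 85 genes were called. Higher in NTS were 18, where 2.98% of all 23188 gene probe sets were called in that direction, and higher in ARC were 11, against 4.15%. Among the 45 genes whose mean signal lay above the mean background, 20 were called (44.4%), against 8.97% of all probe sets with such a mean. Between PVN and NTS, 21 genes were called, 14 higher in NTS (2.95% of all probe sets) and 7 higher in PVN (2.6% of all). Of the 45 genes with the higher signals, 14 were called (31.1%, against 6.87% of all such probe sets). Between ARC and PVN, 1 gene was higher in ARC (1.88% of all probe sets were) and 1 in PVN (0.349%), and 1 of the 45 was called (2.22%, against 2.11%). In all, 55 genes were called in no pair of regions, 13 were higher in NTS than in both hypothalamic regions, and 7 were higher in both hypothalamic regions than in NTS.

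Of the 8 Kv1 genes, Kcna1 and Kcna2 were called higher in NTS than in ARC and Kcna1 also than in PVN, while Kcna3 was called lower in NTS than in both. Kcna1 read 14.56, 14.57 and 13.29 in the EB-treated and 14.37, 14.40 and 15.25 in the Oil-treated NTS samples. The 6 ARC samples ran from 10.79 to 12.62 and the 6 PVN samples from 10.70 to 12.47, so that NTS did not overlap with either. Kcna1 was thus 6.90-fold higher in NTS than in ARC (log2 2.79, SE 0.37, adjusted p = 3.7e-05) and 6.25-fold higher than in PVN (log2 2.64, SE 0.37, adjusted p = 7.4e-05). Kcnab1, whose product speeds the inactivation of Kv1 channels, averaged 13.34 ± 0.44 in NTS, 11.35 ± 0.39 in ARC and 11.995 ± 0.321 in PVN (SD, n = 6). Its difference was 3.98-fold from ARC and 2.54-fold from PVN. Kcnab3, another beta subunit, averaged 10.46 ± 0.53 in NTS, 8.22 ± 1.25 in ARC and 8.51 ± 1.11 in PVN, 4.75-fold and 3.87-fold lower in the hypothalamic regions (adjusted p = 0.0013 and 0.0043). Kcna2, which joins Kcna1 in axons, was 2.12-fold higher in NTS than in ARC (adjusted p = 0.0012), but with overlap, and the difference fell under 2-fold, to between -0.95 and -0.98 for ARC minus NTS, without ARC EB 1, NTS EB 2 or NTS Oil 3. For Kcnab2 the differences were under 2-fold (log2 0.86 from ARC and 0.61 from PVN, adjusted p = 4.1e-04 and 0.0061).

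Kcnj14 and Kcnj10 were the inward rectifiers higher in NTS. Kcnj14 encodes Kir2.4, known in the rat from motor nuclei of the brainstem. It read 12.78, 12.13 and 11.002 in the EB-treated and 11.97, 11.90 and 9.85 in the Oil-treated NTS samples, against 8.68 to 9.11 in ARC and 8.55 to 9.11 in PVN. The regions did not overlap although NTS alone ranged from 9.85 to 12.78, and NTS was 6.58-fold above ARC (log2 2.72, SE 0.33, adjusted p = 1.5e-05) and 6.53-fold above PVN. Kcnj10, the Kir4.1 channel of astrocytes and oligodendrocytes, averaged 12.28 ± 0.36 in NTS, 11.02 ± 0.23 in ARC and 10.85 ± 0.17 in PVN, a 2.39-fold and a 2.69-fold difference. Kcnj11, the Kir6.2 pore of ATP-sensitive channels, was 3.12-fold higher in NTS than in ARC (adjusted p = 7.5e-05) and lay between them in PVN (9.00 ± 0.48).

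Among the other genes higher in NTS, Kcnd1 (Kv4.1) averaged 10.04 ± 0.66 in NTS, 8.29 ± 0.24 in ARC and 7.98 ± 0.24 in PVN. Its sister gene Kcnd3 (Kv4.3) had the opposite order, while Kcnd2 did not differ by 2-fold between any regions. Kcnh2, the ERG1 channel, averaged 10.63 ± 0.20 in NTS and was 2.14-fold above ARC and 2.26-fold above PVN (adjusted p = 8.1e-06 and 5.7e-06). Kcnn1 (SK1) lay below background in every ARC and PVN sample and at 7.89 to 8.56 in NTS, at least 1.69-fold above ARC and 1.72-fold above PVN when the background median stands in for the lower region. The silent subunits Kcng1, Kcng4 and Kcns3 were called higher in NTS against both regions. Kcng1 read 7.59 to 9.86 in NTS, with 1 of 6 ARC and 1 of 6 PVN samples above background. Kcng4 was above background in 5 NTS samples and Kcns3 in 3, and in none of ARC or PVN. With the background median in place of the lower region, the fold was at least 1.52 (ARC) and 1.55 (PVN) for Kcng4 and at least 1.02 and 1.03 for Kcns3. These bounds and those of Kcnn1 are under 2-fold, so the 2-fold calls of all these genes rest on signals below background. Such a bound applied to 6 of the 29 calls between ARC and NTS and to 6 of the 21 between PVN and NTS. For 3 and 2 further calls no fold is given. Kcnk1, the weak K2P channel TWIK-1, was 2.71-fold higher in NTS than in ARC (12.27 ± 0.34 against 10.83 ± 0.47).

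**Figure D2:**
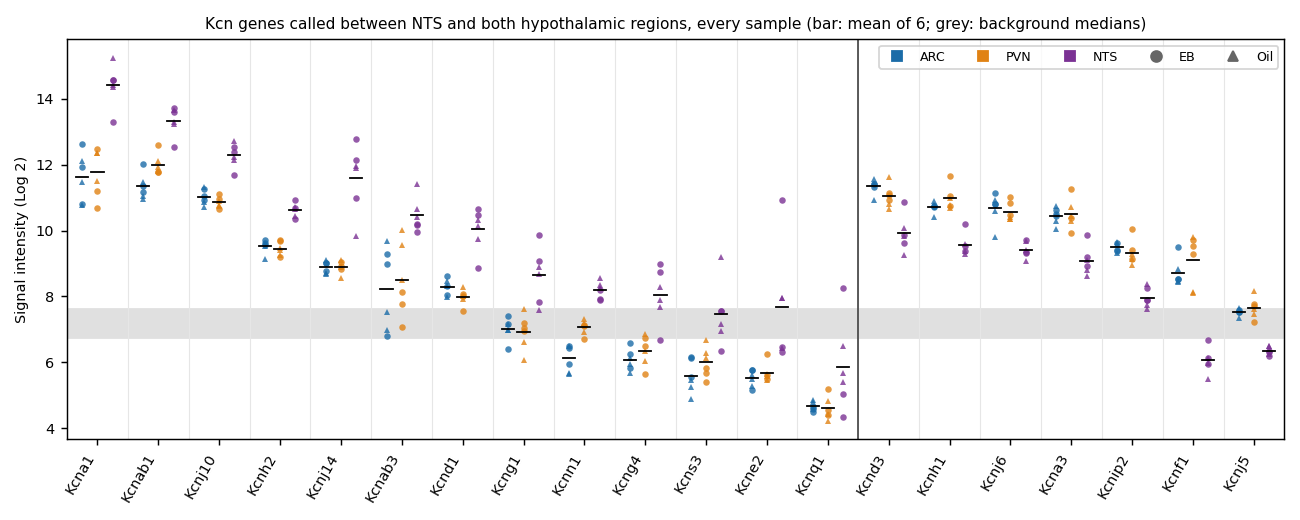
Signal intensity (Log 2) in every sample of the 13 genes called higher in NTS than in ARC and PVN (left of the line) and the 7 called higher in ARC and PVN than in NTS (right), with circles for EB, triangles for Oil and bars for the mean of 6 samples. The grey band spans the background medians, and the single high NTS circle of Kcne2 and of Kcnq1 is NTS EB 3.

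Higher in both hypothalamic regions were Kcnf1, Kcnip2, Kcnd3, Kcna3, Kcnj6, Kcnh1 and Kcnj5. Kcnf1, a silent subunit (Kv5.1), read 9.50, 8.52 and 8.52 with EB and 8.83, 8.46 and 8.44 with Oil in the ARC, and 9.52, 9.28, 9.73, 8.12, 9.81 and 8.11 in the PVN samples in the same order. All 6 NTS samples lay below background, at 5.49 to 6.68. The fitted difference was 2.65 from ARC (SE 0.27, adjusted p = 3.7e-06) and 3.04 from PVN (SE 0.27, adjusted p = 1.6e-06), and with NTS set at the background median the fold was at least 2.39 and at least 3.12. Kcnip2, a KChIP, averaged 9.49 ± 0.14 in ARC, 9.33 ± 0.38 in PVN and 7.96 ± 0.30 in NTS, with no overlap. Kcnd3, whose channels bind KChIPs, averaged 11.34 ± 0.21, 11.04 ± 0.34 and 9.92 ± 0.54, and its PVN samples overlapped with NTS. The PVN call was lost at 1.00 without NTS EB 1 and at 0.97 without PVN Oil 2. Kcna3 (Kv1.3) was 2.57-fold above NTS in ARC and 2.68-fold in PVN, the reverse of its relative Kcna1. Kcnh1 (Eag1) was 2.23-fold and 2.68-fold above NTS, the reverse of Kcnh2.

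GIRK genes split by subunit. Kcnj6 (GIRK2) averaged 10.68 ± 0.46 in ARC, 10.57 ± 0.28 in PVN and 9.42 ± 0.23 in NTS, 2.39-fold and 2.22-fold above NTS without overlap. Kcnj5 (GIRK4), which is known in the mouse hypothalamus, read 7.35 to 7.64 in ARC, 7.21 to 8.18 in PVN and 6.20 to 6.49 in NTS. Every NTS sample was below background, so that the folds above background were at least 1.06 for ARC and 1.16 for PVN. Both are under 2-fold, so the 2-fold calls of Kcnj5 also rest on signals below background. Kcnj3 (GIRK1), the common partner, averaged 11.76, 11.80 and 11.88 in ARC, PVN and NTS, with differences of -0.12 (SE 0.15) for ARC minus NTS and -0.09 (SE 0.15) for PVN minus NTS. Kcnj9 (GIRK3) was below background in all samples. The SK gene Kcnn3, a source of afterhyperpolarization, was 2.08-fold higher in ARC than in NTS (12.68 ± 0.46 against 11.62 ± 0.69, adjusted p = 0.011), and so was the mechanosensitive leak channel Kcnk2 (TREK-1, adjusted p = 0.0011). Both genes overlapped between the regions, and both differences were under 2-fold once a single sample was left out. For Kcnn3 this was so without ARC EB 1 (0.96), ARC Oil 2 (0.98), NTS EB 1 (1.00) or NTS Oil 3 (0.76), and for Kcnk2 without ARC EB 1 (0.98), ARC Oil 1 (0.96), NTS EB 1 (0.93) or NTS Oil 3 (0.87).

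ARC and PVN differed by 2-fold for few potassium channel genes. Kcnc2, a Kv3 channel of fast-spiking neurons, was 2.31-fold higher in PVN (11.19 ± 0.46 against 9.98 ± 0.83, SE 0.30 log2, adjusted p = 0.010), with overlap, and the call was lost without ARC Oil 2, whose signal of 8.70 was the lowest of all (a difference of -0.95 for ARC minus PVN, leaving 1 called gene). With neither PVN Oil 1 nor PVN Oil 3 it missed the adjusted p (-1.21, adjusted p = 0.063). Kcnc2 read 10.92 to 11.12 in all 6 NTS samples. Kcnh6 was 1.13 higher in ARC on the log2 scale, but all 18 of its signals lay below background and no fold is given. Under the adjusted p alone, 18 of the 85 genes passed between ARC and PVN, 50 between ARC and NTS and 39 between PVN and NTS. The share of all probe sets that passed this rule is not given, so these counts have no such comparison. Median sizes of the log2 difference, in the same order, were 0.27, 0.57 and 0.42 for the 85 genes. For all probe sets they were 0.20, 0.29 and 0.25.

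Markers of other cells moved with several of these genes. A list of 5 genes of fast-spiking neurons and large axons (Pvalb, Nefh, Spp1, Scn4b and Cplx1), written with earlier results known, averaged 11.58 to 14.26 in NTS samples, 8.75 to 10.22 in ARC and 8.65 to 11.14 in PVN. Its part in the NTS levels of Kcna1, Kcnab1, Kcnab3 and Kcnj14 was not tested. In ARC, Kcnab3 read 6.81, 6.99 and 7.52 in EB 1, Oil 1 and Oil 2, where the list averaged 8.88, 8.75 and 8.89, and 8.98, 9.30 and 9.69 in EB 2, EB 3 and Oil 3, where it averaged 9.55, 10.22 and 9.70. General neuron markers averaged 13.75 to 14.59 in NTS, 12.64 to 13.18 in ARC and 12.92 to 13.47 in PVN. Widest were the gaps of the neurofilament genes Nefl, Nefm (13.54 to 15.33 in NTS, 9.72 to 12.30 elsewhere) and Nefh, which both lists hold. Syt1 was lower in NTS (14.04 to 15.20, against 15.55 to 16.48). Stmn2, Elavl4, Rbfox3 and Slc12a5 overlapped between NTS and both other regions. Snap25 was slightly higher in NTS, and Tubb3 was above ARC but overlapped with PVN. Oligodendrocyte markers averaged 14.01 to 15.75 in NTS, 11.65 to 14.64 in ARC and 12.84 to 15.08 in PVN. All 10 neuron markers and all 8 oligodendrocyte markers measured were above background in every sample.

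Kcne2 and Kcnq1, which in the mouse form a channel of the choroid plexus epithelium, were highest in the same NTS sample. Kcne2 read 6.32, 6.48 and 10.93 in the EB-treated and 7.94, 7.94 and 6.43 in the Oil-treated NTS samples, and 5.16 to 6.24 in the 12 hypothalamic samples. Kcnq1 read 4.34, 5.03 and 8.26 with EB and 6.49, 5.67 and 5.40 with Oil in NTS. NTS EB 3 was the highest for both genes, and it was also the sample with the highest choroid plexus mean, 13.64, of 9 markers measured out of 10. NTS Oil 1 and Oil 2, with 11.28 and 11.35, were the next highest for both genes. Folr1, Sostdc1 and Aqp1 were above background in these 3 samples and in no other. The rest of the 9 markers were above background in further samples too. Ttr was so in all 18 samples, at 15.29 in NTS Oil 3 and 11.45 in NTS EB 2, and Slc4a5 also in NTS Oil 3 (7.51). Kcnq1 was above background in 1 of 18 samples, and its calls were lost in 18 of 24 alternatives against ARC and in 17 of 25 against PVN, most of which leave out a single sample. The part of this tissue in the NTS calls of Kcne2 and Kcnq1 was not tested. Without NTS EB 3 the difference of Kcnq1 from ARC was -0.60 and that from PVN -0.67, neither called, while Kcne2 stayed called at -1.40 and -1.24. Kcne2 was above background in 3 of 6 NTS samples and in 0 ARC samples. With the background median in place of ARC, its fold in the fit of all samples was at least 1.18, under 2-fold. With neither PVN Oil 1 nor PVN Oil 3 in the fit, the difference of Kcne2 from PVN was -1.99 and missed the adjusted p (0.068). These genes had the widest ranges within a group, 4.61 for Kcne2 and 3.92 for Kcnq1 in EB-treated NTS. Kcnab3 in Oil-treated ARC (2.69) and Kcng4 in EB-treated NTS (2.29) came next.

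EB was compared with Oil within each region, and a difference of at least 2-fold with an unadjusted p no higher than 0.05 counted as a call. In the ARC, none of the 85 genes was called, where 0.479% of all gene probe sets were, and 6 had an unadjusted p of 0.05 or less (7.06%, against 5.66% of all probe sets). In the NTS none was called either (0.0776% of all), and 4 had such a p (4.71%, against 4.65%). In the PVN, 1 gene was called higher with EB (0.151% of all) and 1 lower (0.181% of all), and 8 had such a p (9.41%, against 6.39%). No gene passed adjustment over all probe sets in any region, the smallest adjusted p being 0.852 (ARC), 0.681 (PVN) and 0.934 (NTS). The samples of both treatments did not overlap for 8 genes in the ARC (9.41%, against 11.2% of all probe sets), 16 in the PVN (18.8%, against 12.4%) and 4 in the NTS (4.71%, against 11.2%). With 3 samples in each group, the smallest exact permutation p is 0.1. Leaving out a single sample gave 1 called gene without ARC Oil 1, 2 without ARC Oil 3, 6 without PVN Oil 2 and 2 without NTS EB 3. The Oil-treated PVN samples left without PVN Oil 2 are Oil 1 and Oil 3, whose markers are given above. Shares of all probe sets called in these fits are not given, so the counts are not read as particular to potassium channel genes.

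Kcnmb4 was called higher with EB in the PVN. It encodes the beta-4 subunit that slows BK channels in neurons. Its signals were 9.57, 10.72 and 9.53 with EB and 8.38, 8.93 and 8.09 with Oil, so that the groups did not overlap. The difference was 2.77-fold (log2 1.47, SE 0.35; limma unadjusted p = 0.0035, adjusted p = 0.681; exact permutation p = 0.1). In the ARC Kcnmb4 differed by -0.16 (SE 0.34) and in the NTS by 0.44 (SE 0.65), and both overlapped. Kcnma1, the BK pore with which it assembles, differed by 0.09 (SE 0.19) in the PVN, 0.30 (SE 0.16) in the ARC and 0.17 (SE 0.15) in the NTS.

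Kcnab3 was called lower with EB in the PVN. Its signals were 7.77, 7.08 and 8.13 with EB and 10.01, 8.51 and 9.57 with Oil, without overlap. Levels were 3.26-fold lower with EB (a log2 difference of -1.70, SE 0.41; limma unadjusted p = 0.0035, adjusted p = 0.681; exact permutation p = 0.1). In the NTS Kcnab3 was also lower with EB in all samples (10.15, 10.19 and 9.94, against 10.66, 10.41 and 11.42), by -0.74 (SE 0.26, unadjusted p = 0.025, exact permutation p = 0.1), short of 2-fold. Without NTS Oil 3 the difference was -0.44. NTS EB 3, the lowest for Kcnab3 in this region, and NTS Oil 3, the highest, were also the lowest and highest for the fast-spiking and large axon list (11.58 and 14.26). In the ARC it differed by 0.30 (SE 0.84), with overlap.

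The PVN Oil-treated samples with the highest Kcnab3 and the lowest Kcnmb4 were Oil 1 and Oil 3, which had the high midbrain and low PVN marker means given above. The fast-spiking and large axon list also averaged 10.96 and 11.14 in them, against 8.65 to 9.70 in the other 4 PVN samples. Of the 12 midbrain markers measured, Barhl1, Sim2, Foxa1 and Pitx3 were below background in every sample. Without both samples, which leaves 1 Oil-treated sample that is assumed to vary like the others, Kcnmb4 differed by 1.01 and Kcnab3 by -0.85 and neither was called. With the midbrain mean as a covariate the differences were 1.15 and -1.04 and both stayed called. PVN Oil 2, the Oil-treated sample that remains without Oil 1 and Oil 3, stood apart in another way. Its mean of endothelium and mural cell markers was 7.87, against 9.32 to 10.20 in the other PVN samples. It is also the sample that the paper reports as clustering apart from the other Oil-treated PVN samples.

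**Figure D3:**
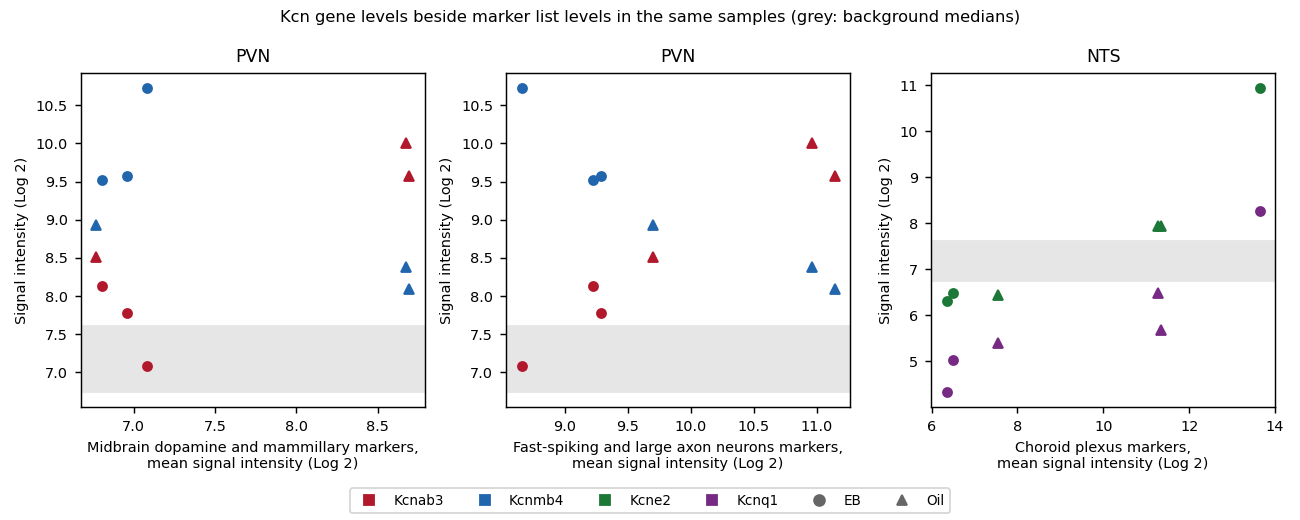
Signal intensity (Log 2) of Kcnab3 and Kcnmb4 in the 6 PVN samples against the mean of the midbrain markers (left) and of the fast-spiking and large axon markers (middle), and of Kcne2 and Kcnq1 in the 6 NTS samples against the mean of the choroid plexus markers (right). Circles are EB-treated and triangles Oil-treated samples. The 2 Oil-treated PVN samples at the right of each PVN panel are Oil 1 and Oil 3, and the circle at the far right of the NTS panel is NTS EB 3.

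Of the GIRK, ATP-sensitive pore and M-current genes, none was called with EB in any region. In the ARC, EB minus Oil was -0.12 (SE 0.21) for Kcnj3, 0.48 (SE 0.28) for Kcnj6 and 0.02 (SE 0.13) for Kcnj5, which was above background in 3 of 6 ARC samples. For Kcnj11 it was 0.43 (SE 0.38), and for the M-current genes 0.28 (SE 0.20, Kcnq3) and 0.52 (SE 0.46, Kcnq5). None of these had an unadjusted p of 0.05 or less. Kcnj8, the other ATP-sensitive pore gene, differed by 0.48 (SE 0.18, unadjusted p = 0.030, exact permutation p = 0.1) with all signals below background. In the PVN, Kcnj6 read 11.01, 10.48 and 10.83 with EB and 10.41, 10.35 and 10.34 with Oil, a difference of 0.40 (SE 0.16, unadjusted p = 0.035, exact permutation p = 0.1) under 2-fold.

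Other potassium channel genes differed between treatments by less than 2-fold or below background. In the ARC, Kcna4 (Kv1.4, an A-type channel) read 9.15, 9.66 and 9.57 with EB and 8.45, 8.43 and 9.13 with Oil, a difference of 0.79 (SE 0.23, unadjusted p = 0.011, exact permutation p = 0.1). Without ARC Oil 3 it was 1.02 and was called, and without both ARC EB 2 and ARC EB 3, the samples with the highest Kcna4 and the highest midbrain means of the ARC (9.64 and 8.81), it was 0.48. Kcnt1, described below, differed there by 0.55 (SE 0.15, unadjusted p = 0.0084, exact permutation p = 0.1), above background. Kcns3 (0.75), Kcnj8 (0.48), Kcnk12 (0.53) and Kcnk6 (-0.50) also had an unadjusted p of 0.05 or less in the ARC, with all samples below background. In the PVN, Kcnj1 (-0.86), Kcns3 (-0.72) and Kcna5 (0.71) had such a p with all samples below background, while the Kv3 gene Kcnc1 (-0.48) and Kcnt1 (0.38) did so above it. In the NTS, Kcnh7 (-0.48), Kcnn1 (-0.39) and Kcnv1 (0.38) did, the last below background. Over the whole family, EB minus Oil was positive for 63 of 85 genes in the ARC (74.1%, against 51.7% of all probe sets), 50 in the PVN (58.8%, against 49.5%) and 50 in the NTS (58.8%, against 48.2%), with medians of 0.15, 0.09 and 0.06.

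**Figure D4:**
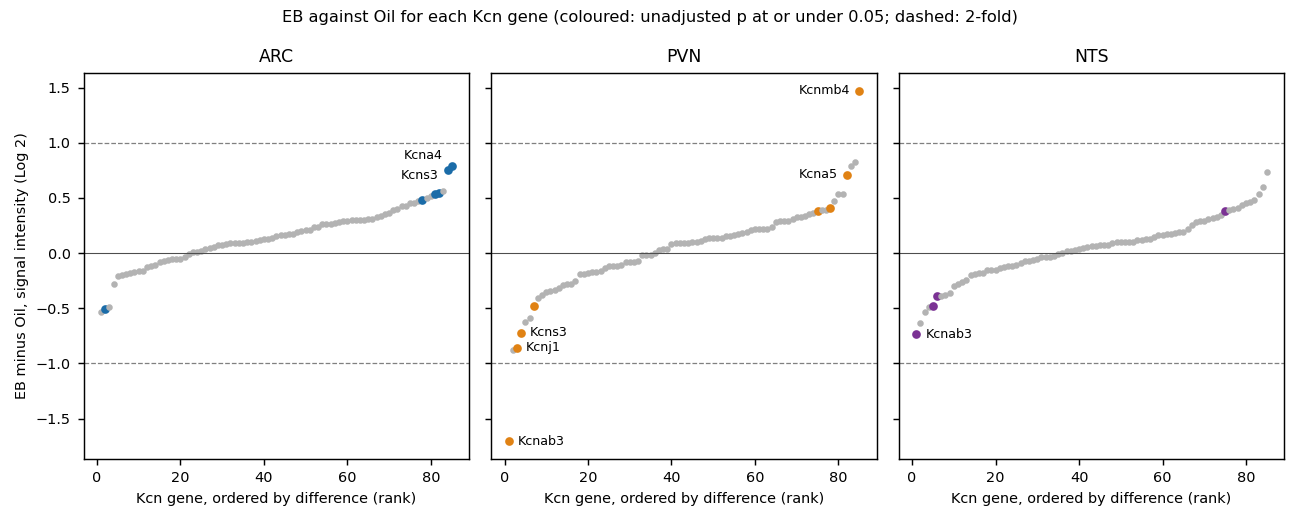
EB minus Oil in signal intensity (Log 2) for each of the 85 genes, ordered by size within the ARC, PVN and NTS. Coloured points have an unadjusted p of 0.05 or less, dashed lines mark 2-fold, and only Kcnmb4 (1.47) and Kcnab3 (-1.70) in the PVN lie outside them with such a p.

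Kcnt1 had the smallest p for the EB effect averaged over the regions. It encodes Slack, a sodium-activated potassium channel. Its signals were 9.58, 9.85 and 9.76 with EB and 9.34, 9.27 and 8.95 with Oil in the ARC. They were 9.72, 10.01 and 9.61 against 9.42, 9.49 and 9.28 in the PVN, and 9.51, 9.78 and 9.81 against 9.30, 9.15 and 9.68 in the NTS. EB-treated samples were above all Oil-treated samples in the ARC and PVN and overlapped with 1 in the NTS. The average difference was 0.42 (SE 0.09, limma adjusted p = 0.233), so Kcnt1 did not pass. This fit counts 9 samples for each treatment, which come from 3 rats. None of the 85 genes passed for the average effect, where 0.00431% of all probe sets did, and 6 had an unadjusted p under 0.05 (7.06%, against 7.68% of all). Next came Kcns2 (0.26, below background), Kcnk4, the TRAAK leak channel (0.32), and Kcnj6 (0.32). For the difference of the EB effect among regions, none passed (0% of all probe sets did) and 4 had an unadjusted p under 0.05, Kcnj1, Kcnmb3, Kcnk6 and Kcnd2 (4.71%, against 4.83% of all), each with an adjusted p of 0.958.

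Genes that work with potassium channels but do not carry a Kcn name were read from a list of 17, of which 14 were measured. Hcn2, a pacemaker cation channel, was higher in NTS (11.70 ± 0.54) than in ARC (9.27 ± 0.61, log2 2.43, adjusted p = 5.3e-06) and PVN (10.03 ± 0.54, log2 1.67, adjusted p = 1.7e-04). Hcn3 and Hcn4 had the opposite order, with PVN above NTS by 1.26 and 1.14 (adjusted p = 0.0012 and 9.7e-05). No other gene of the list was called between regions. Abcc9, the SUR2 subunit of vascular ATP-sensitive channels, was the only partner called with EB. In the ARC it read 8.88, 10.25 and 9.04 with EB and 8.54, 7.73 and 8.43 with Oil, a difference of 1.16 (unadjusted p = 0.019, groups without overlap), and in the NTS it had the opposite sign, -0.66. Markers of endothelium and mural cells, a list of 10 measured genes that holds Abcc9, averaged 8.40 in ARC Oil 2 and 9.56 to 10.14 in the other ARC samples, and their part was not tested. Abcc8, the SUR1 subunit that pairs with Kcnj11 in neurons, differed by -0.03 (ARC), -0.01 (PVN) and 0.27 (NTS).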

How the data were processed

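Total RNA from tissue punches was hybridised to Rat Clariom S Pico arrays. The deposited values are log2 signals that the authors obtained from the array service, which adjusted the background and normalized the arrays before the log2 step, and they ran their own comparisons in the Transcriptome Analysis Console.

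All 23188 gene probe sets were fitted in R 4.3.3 with limma 3.58.1 (statmod 1.5.0 for random blocks), EB minus Oil on the 6 samples of a region, and region differences, the average EB effect and its difference among regions on all 18 samples, which were taken as independent although the methods give 3 rats for each treatment. No filter or further normalization was used. Adjustment was by Benjamini-Hochberg over all probe sets. SE is limma's moderated standard error. EB differences were called at the thresholds of the study's methods, at least 2-fold with an unadjusted p no higher than 0.05. Where all samples of a side lay below background, the mean background median took their place in a fold given as at least. Permutation tests were exact and two-sided over the splits of 3 samples against 3.

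The labels call the samples of a group biological replicates, and their number limits the precision. Arrays have no read depth. The genes, gene lists and tests were chosen with earlier results of these data known. Genes named are those called in a region, the 6 called with the largest change in each direction between regions, the 8 with the highest means, the brightest and dimmest of a family, the 4 with the widest ranges in a group or smallest p for the average effect and its difference among regions, and called partners. Genes of the known estradiol targets, other genes with an unadjusted p of 0.05 or less and relatives of named genes were added after their values were seen. The fits were tested on simulated data. Sequences are from RefSeq (GRCr8), and the plots were made with matplotlib 3.10.9 (Python 3.11.15). Samples with the same replicate number did not deviate together in every pair, so the number was not used as a block in the results given.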

Additional observations from a re-analysis of the deposited data

Results flagged for a closer look

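For 3 potassium channel genes, all EB-treated samples lay above all Oil-treated samples in the ARC and below all of them in the PVN. Kcnd2 differed by 0.2413 in the ARC and by -0.2778 in the PVN, with signals of 13.91 to 14.55 in all 12 samples. Kcns3 differed by 0.7519 and -0.7237, and Kcnmb3 by 0.1695 and -0.288, both with every sample of these regions below background. PVN minus ARC in the EB effect was -0.52 (SE 0.19) for Kcnd2, -1.48 (SE 0.64) for Kcns3 and -0.46 (SE 0.14) for Kcnmb3, and none passed adjustment over all probe sets (limma adjusted p = 0.966, 0.966 and 0.925).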

How the results depend on the processing

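Between regions, the call and direction of single genes held in 676 of 722 values for ARC against NTS, 519 of 544 for PVN against NTS and 47 of 51 for ARC against PVN, and no direction reversed; 19 of 29, 15 of 21 and 0 of 2 called genes held in all. Without a fold threshold, 50, 39 and 18 genes passed, counts that have no share of all probe sets beside them. Between ARC and PVN, 5 were called after quantile normalization, 1 after a filter on dim probe sets, 0 in EB samples and 6 in Oil samples, and 1 to 3 with a sample left out. With EB, leaving out each sample gave 0 to 2 called genes in the ARC, 2 to 6 in the PVN and 0 to 2 in the NTS. In the PVN, 5 were called with array weights, 0 under an adjusted p alone and 0 without both PVN Oil 1 and PVN Oil 3. At an unadjusted p, 4 genes differed in their EB effect among regions. The cause of these changes was not tested, beyond the fewer samples or genes that an alternative uses. Counts of genes called in these alternatives have no share of all probe sets beside them and are not read as particular to potassium channel genes. With the replicate number as a block, 0, 2 and 0 genes were called with EB in the ARC, PVN and NTS, 29, 21 and 2 between regions, and 0 for the average EB effect and its difference among regions, so the block changed no call. Same-numbered samples of different regions correlated at -0.11 to 0.42 (8 of 18 pairs over 0.1) and EB and Oil samples at -0.46 to 0.13 (1 of 9 pairs over 0.1), and a random block gave a correlation of 0.049. Fitting all 18 samples for pairs of regions was already the main choice. The 29 genes below background in all samples limit what these arrays can show.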
